A study of Mus musculus with 24 samples.

Results

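The 8 genes described here, Gfap, Vim, Serpina3n, Cd44, Aspg, Lcn2, Cp and Chil1, are genes whose RNA is known to increase when astrocytes respond to injury, inflammation or age. They were chosen by gene symbol: every probe annotated to one of them was taken, which gave 13 probes for 8 genes among the 25697 probes of the array. 7 of the 13 probes, 1 each for 7 of the 8 genes, passed the filter on dim probes, which kept 11901 probes with an intensity above 16 on all 4 arrays of at least 1 group. Gfap, Vim, Serpina3n, Cp and Chil1 were above 16 on all 24 arrays. Aspg passed only through the old groups (above 16 on 15 arrays) and Cd44 only through old females (14 arrays, and 1 of its 6 probes), while Lcn2 passed in no group.

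Astrocytes are the glial cells that take up transmitter and potassium, feed neurons and contact vessels, and they answer damage by enlarging their processes and switching on a set of reactive genes. Filament proteins (Gfap, Vim) build the cytoskeleton of the enlarged processes, secreted proteins (Serpina3n, Lcn2, Chil1) act on proteases, iron and the matrix around the cell, and Cd44 binds hyaluronan at the cell surface. Cytokines of the interleukin-6 family, acting through receptors such as the one encoded by Osmr and through STAT3, and signals from activated microglia are known to induce many of them.

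Hippocampal RNA from 24 male and female C57BL6 mice was hybridised to Illumina Mouse Ref8 arrays, 1 array per mouse and 4 mice per group. The groups were female young (FY, 3 months), female adult (FA, 12 months), female old (FO, 24 months, labelled Aged), male young (MY, 3 months), male adult (MA, 12 months) and male old (MO, 24 months, labelled Aged). No mouse received a drug or carried a genetic change, the females were killed in diestrus, and the old females were in reproductive senescence, so that age in females came with the loss of cycling. The whole hippocampus was used, with all its cell types, and fewer cells of a type cannot be told apart from less RNA per cell.

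Values are background-subtracted, average-normalised intensities in linear units, and fold changes are on the log2 scale after raising values under 16 to 16, which understates the change of dim genes. The number of mice limits the precision. Between 11775 and 12437 probes were above 16 on an array. Markers of astrocytes (11 of 14 listed), oligodendrocytes (6 of 7), microglia (9 of 13) and neurons (5 of 9) passed the filter. MO replicate 3 stood apart from the other old males, with a higher mean log2 level of genes listed for S1 cortical pyramidal cells (0.561 above the mean of all arrays, against -0.113 to -0.0068 in the other 3) and a lower one for CA1 pyramidal cells (-0.349, against -0.0368 to 0.0239). MO replicate 1 stood apart from the other old males in its choroid plexus markers (1.46, against -2.49 to -1.77). Arrays of other groups were higher still in these markers (up to 3.09 in FA and 2.54 in FY). The mean level of neuron markers in MO replicate 1 was 0.389, against -0.165 to -0.0547 in the other old males. Its root mean square deviation from its group mean, 0.356 in log2 units, was the largest of all arrays. Results that used MO are also given without these mice for Serpina3n and Gfap, and not for every gene.

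The promoters of 5 of the genes are shown. Serpina3n, Gfap, Vim and Chil1 were higher in the mean in old mice and were above 16 on every array, and Lcn2 was above 16 in old mice only. Each is a window of 300 bases around a RefSeq transcript start (GRCm38.p6), most of it before the start, on the strand of the gene, with the matches to 5 motifs searched on both strands in capitals. The start base is position 0.
Serpina3n, chr12:104406458-104406757, plus strand: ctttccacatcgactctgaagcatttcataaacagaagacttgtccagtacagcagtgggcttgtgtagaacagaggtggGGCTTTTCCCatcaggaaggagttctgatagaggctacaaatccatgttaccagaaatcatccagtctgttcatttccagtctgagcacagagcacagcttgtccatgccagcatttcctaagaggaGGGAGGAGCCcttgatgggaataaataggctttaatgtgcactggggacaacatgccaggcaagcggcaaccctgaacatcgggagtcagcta
Gfap, chr11:102897151-102897450, minus strand: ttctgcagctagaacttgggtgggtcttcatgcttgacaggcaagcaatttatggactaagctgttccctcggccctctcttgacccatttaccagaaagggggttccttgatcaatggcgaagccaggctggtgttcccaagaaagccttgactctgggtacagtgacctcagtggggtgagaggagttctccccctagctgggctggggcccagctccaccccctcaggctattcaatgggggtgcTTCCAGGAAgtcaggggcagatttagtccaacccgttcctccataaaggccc
Vim, chr2:13574061-13574360, plus strand: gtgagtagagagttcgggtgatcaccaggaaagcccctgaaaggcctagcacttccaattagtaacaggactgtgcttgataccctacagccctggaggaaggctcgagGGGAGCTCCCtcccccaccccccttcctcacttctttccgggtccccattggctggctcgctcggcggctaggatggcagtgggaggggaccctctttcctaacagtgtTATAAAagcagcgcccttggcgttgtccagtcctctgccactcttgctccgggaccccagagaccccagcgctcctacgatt
Chil1, chr1:134181906-134182205, plus strand: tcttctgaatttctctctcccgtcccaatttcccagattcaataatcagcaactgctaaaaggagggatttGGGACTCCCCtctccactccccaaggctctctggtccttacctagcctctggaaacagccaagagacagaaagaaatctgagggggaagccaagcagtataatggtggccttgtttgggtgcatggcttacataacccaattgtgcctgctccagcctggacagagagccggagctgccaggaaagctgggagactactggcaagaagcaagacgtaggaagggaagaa
Lcn2, chr2:32387690-32387989, minus strand: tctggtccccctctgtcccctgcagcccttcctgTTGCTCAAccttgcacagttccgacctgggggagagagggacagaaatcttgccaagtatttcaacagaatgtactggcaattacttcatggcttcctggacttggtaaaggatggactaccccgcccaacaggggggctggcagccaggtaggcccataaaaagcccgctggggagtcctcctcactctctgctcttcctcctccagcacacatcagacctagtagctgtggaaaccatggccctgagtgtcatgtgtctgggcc
The capitals are a STAT motif (TTCNNNGAA) at -2 in Gfap, NF-kB motifs (GGGA, any 4 bases, CC) at -170 and -43 in Serpina3n, at -141 in Vim and at -179 in Chil1, a TATA box (TATAAA) at -32 in Vim, and a C/EBP motif (TTGCNNAA) at -216 in Lcn2. Of 32851 mouse promoters of the same length, 8.3% held the STAT motif, 20.7% the NF-kB motif, 13.6% the TATA box and 10.8% the C/EBP motif. The fifth motif, AP-1 (TGANTCA, in 7.81% of promoters), was in none of the 5 promoters shown. The promoters of Cd44 and Aspg held none of the 5 motifs, and Cp held matches at both of its RefSeq starts. A match is a description of the letters and not a site of binding.

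In females, 4 of the 7 genes were higher at 24 than at 3 months by the test over all probes: Serpina3n, Aspg, Cd44 and Chil1. 0.714% of the 11901 probes passed the same test in that comparison (0.664% as higher). Aspg and Cd44 could be tested only because old mice were above 16, so the count over 7 is a description. Of the 5 genes above 16 on all 24 arrays, Serpina3n and Chil1 passed, against 0.453% of the 10604 probes above 16 on every array. Gfap and Vim were also higher in the mean without passing, and Cp was lower in the mean without passing. The 4 old females did not overlap the 4 young ones for 5 of the 7 genes (Serpina3n, Vim, Chil1, Aspg and Cd44), where 3.08% of probes were higher with no overlap. Without Aspg and Cd44 that was 3 of 5 genes, against 2.73% of the probes above 16 on every array. In males, 6 of the 7 were higher in the mean at 24 than at 3 months, as were 42.7% of all probes tested. None of the 7 passed the test in males, where 0.101% of probes did. At an unadjusted p under 0.05 limma reached 3 of the 7 in males (Vim, Aspg and Chil1) and 11.4% of all probes.

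Serpina3n encodes a secreted inhibitor of serine proteases and is one of the most widely used markers of reactive astrocytes. It measured 1174, 832, 918 and 1442 in FO, against 477, 459.7, 454 and 467 in FY. All old females were above all young females, and the young values lay within a few units of each other while the old ones spread widely (SD 275 in FO and 9.73 in FY, n = 4 each). The difference was 1.2 on the log2 scale (SE 0.277, adjusted p = 0.0366, limma), or 2.30-fold. The call was lost on leaving out any one of 7 of the 8 mice, with a change of 1.05 to 1.27 and a limma adjusted p of up to 0.21. In males it measured 616, 846, 223 and 910.0 in MO, against 507, 482, 452 and 558 in MY. 3 of the 4 old males were above every young male, and MO replicate 3, the mouse whose pyramidal markers stood apart, was the lowest of all 24 arrays. The difference in males was 0.20 (SE 0.277, adjusted p = 0.811), and it was 0.65 without MO replicate 3 (adjusted p = 0.255), -0.03 without MO replicate 4 and 0.82 without MO replicates 1 and 3 together (adjusted p = 0.0949). In adults Serpina3n measured 562, 487, 537 and 481 in FA and 546, 418, 347 and 551 in MA. All 4 adult females were above all 4 young females, where 2.57% of probes were higher with no overlap, and the difference was 0.15 (SE 0.277, adjusted p = 0.883).

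**Figure D1:**
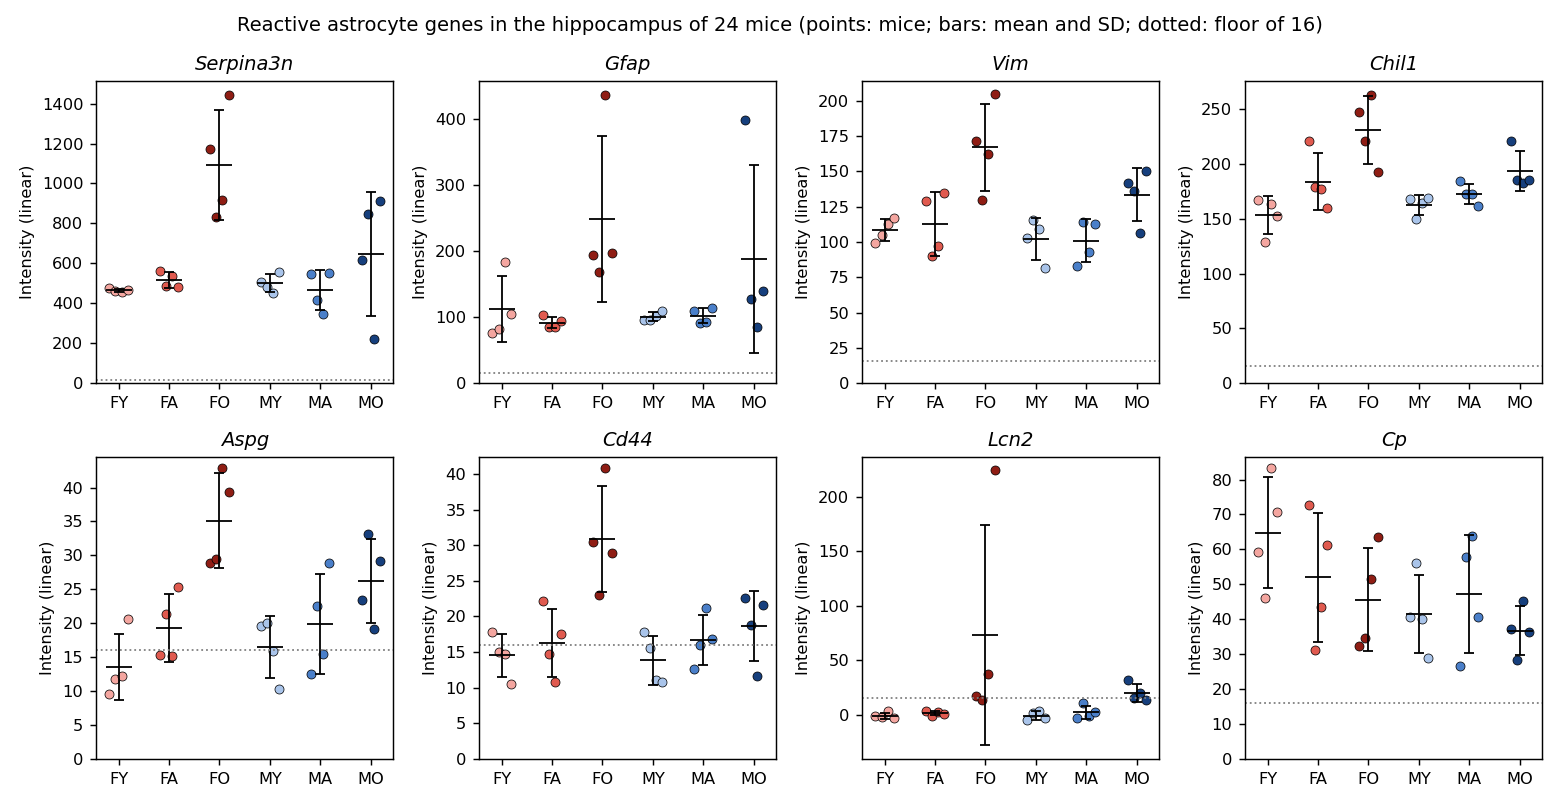
Intensity (linear axis) of the 7 genes that passed the filter and of Lcn2 in each of the 24 mice, by group from young to adult to old, females (red) left of males (blue). Points are mice, horizontal bars the mean and vertical bars the SD, and the dotted line is the floor of 16. The mean of old females is the highest of the 6 groups for every gene but Cp, and in Gfap and Lcn2 a single old mouse lies far above the rest of its group (436 for Gfap and 224 for Lcn2).

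Gfap, the main filament protein of astrocytes, measured 194, 168, 436 and 197 in FO, against 76.6, 81.3, 184 and 105 in FY. FY replicate 3, at 184, lay above FO replicate 2, so the groups overlapped. The difference was 1.13 (SE 0.337), 2.19-fold in the mean, and did not pass the test (adjusted p = 0.213). Against the adults, at 103, 84.4, 84.8 and 94.3 in FA, all 4 old females were higher, and the difference was 1.33 (SE 0.337, adjusted p = 0.133). Old males measured 398, 128, 85.4 and 139, against 96.2, 96.1, 101 and 109.5 in MY. Old male replicate 1 was far above the other 3, and replicate 3 was below every young male. The male difference was 0.64 (SE 0.337, adjusted p = 0.484), 0.19 without MO replicate 1 (adjusted p = 0.798), 0.93 without MO replicate 3 (adjusted p = 0.441) and 0.40 without both (adjusted p = 0.873).

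Vim, the filament protein that pairs with Gfap in reactive astrocytes and is also made by endothelial, ependymal and meningeal cells, measured 171, 129.6, 162 and 204 in FO, against 99.1, 105, 112 and 117 in FY. All old females were above all young ones. The difference was 0.61 (SE 0.157, adjusted p = 0.087). Old males, at 142, 136, 107 and 150.4, were mostly above the young males at 103, 115, 109 and 81.6, with MO replicate 3 the exception. The male difference was 0.39 (SE 0.157, adjusted p = 0.343). Of 6 proteins that form or organise filaments with these, 5 were measurable and none passed the test in FO against FY, with a median of 0.05 and a range of 0.03 to 0.13.

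Chil1 encodes a secreted chitinase-like protein that is made by astrocytes in inflamed brain. It measured 248, 221, 264 and 193 in FO, against 167, 129, 164 and 153 in FY. All old females were above all young females and the difference was 0.59 (SE 0.11, adjusted p = 0.00518), 1.5-fold. Adult females, at 221, 179, 177 and 159.6, lay between, with a difference of 0.26 from FY (SE 0.11, adjusted p = 0.392). In males, MO measured 221, 186, 183 and 186, against 169, 149.5, 164 and 169.5 in MY. Of the 7 genes only Chil1 had all old males above all young males, where 1.66% of probes were higher with no overlap. For Serpina3n, Gfap, Vim, Aspg and Cd44 the old males overlapped the young ones only through MO replicate 3. The share of all probes without that mouse was not counted. The male difference of 0.25 (SE 0.11, adjusted p = 0.389) did not pass the test.

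Aspg, an asparaginase, and Cd44, the hyaluronan receptor, were both near the floor in young mice. Aspg measured 28.9, 29.5, 42.8 and 39.3 in FO, against 9.61, 11.8, 12.2 and 20.6 in FY. All old females were above all young ones, and the difference on the floored scale was 1.02 (SE 0.209, adjusted p = 0.0124). In males it measured 23.4, 33.1, 19.2 and 29.2 in MO, against 19.6, 20.1, 15.9 and 10.2 in MY. The male groups overlapped only through MO replicate 3, and the difference was 0.53 (SE 0.209, adjusted p = 0.324). The Cd44 probe that passed the filter measured 30.5, 23.1, 40.9 and 28.9 in FO, against 17.9, 15, 14.8 and 10.5 in FY. The groups were separate, with a difference of 0.88 (SE 0.159, adjusted p = 0.00366). In males it measured 22.6, 18.8, 11.7 and 21.6 in MO, against 17.8, 15.6, 11 and 10.9 in MY, a difference of 0.25 (SE 0.159, adjusted p = 0.564). The 5 other Cd44 probes lay between -4.15 and 17.3 on all 24 arrays and none differed with age within a sex by an exact two-sided permutation test (unadjusted p of 0.143 or more). Because values under 16 were raised to 16, the sizes of both differences depended on the floor: with a floor of 32 they were 0.18 for Aspg and 0.09 for Cd44, and neither passed.

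Lcn2, a lipocalin that binds iron-carrying siderophores and is made by reactive astrocytes and by neutrophils, passed the filter in no group and was examined on the deposited intensities. It measured 17.7, 14, 37.5 and 224 in FO, against -1.20, -2.22, 3.20 and -2.41 in FY. In males it measured 32.3, 15.3, 20.3 and 13.5 in MO, against -4.50, 1.87, 3.29 and -2.81 in MY. Every old mouse was above every young and adult mouse: the 8 old mice lay between 13.5 and 224 (median 19.0, 5 above 16), and the 16 others between -4.50 and 10.5 with none above 16. No fold is given because the young mice were at background. An exact two-sided permutation test of the old and young means gave p = 0.0286 in each sex, the smallest that its 70 divisions can give, and p = 0.000408 over both sexes, the smallest that 4900 divisions can give. With old and young mice fully apart, the test can only give its smallest p. 18 such tests were run on 6 probes, without adjustment. The test was chosen after the data were seen, so its p-values are a description. The share of all probes with every old array above every other array was not counted. In a limma fit without the filter Lcn2 did not pass (FO against FY 1.3 on the floored scale, SE 0.517). FO replicate 4, highest for Lcn2, was also the highest array for the neutrophil markers S100a8 (54.6, median of all arrays 13.3) and S100a9 (21.7, median 1.77), while the probes of the other 7 neutrophil markers were not above 16 on any array.

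Cp encodes ceruloplasmin, a copper protein that oxidises iron, made by astrocytes and by the choroid plexus. It was lower in the mean in old mice of both sexes, unlike the other 6 genes. It measured 32.5, 34.6, 51.6 and 63.6 in FO, against 59.2, 46.1, 83.2 and 70.8 in FY. The groups overlapped and the difference was -0.53 (SE 0.291, adjusted p = 0.833). In males it measured 37.2, 28.2, 45.2 and 36.3 in MO, against 40.5, 56.1, 40.0 and 29.0 in MY, a difference of -0.15 (SE 0.291, adjusted p = 0.87).

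**Figure D2:**
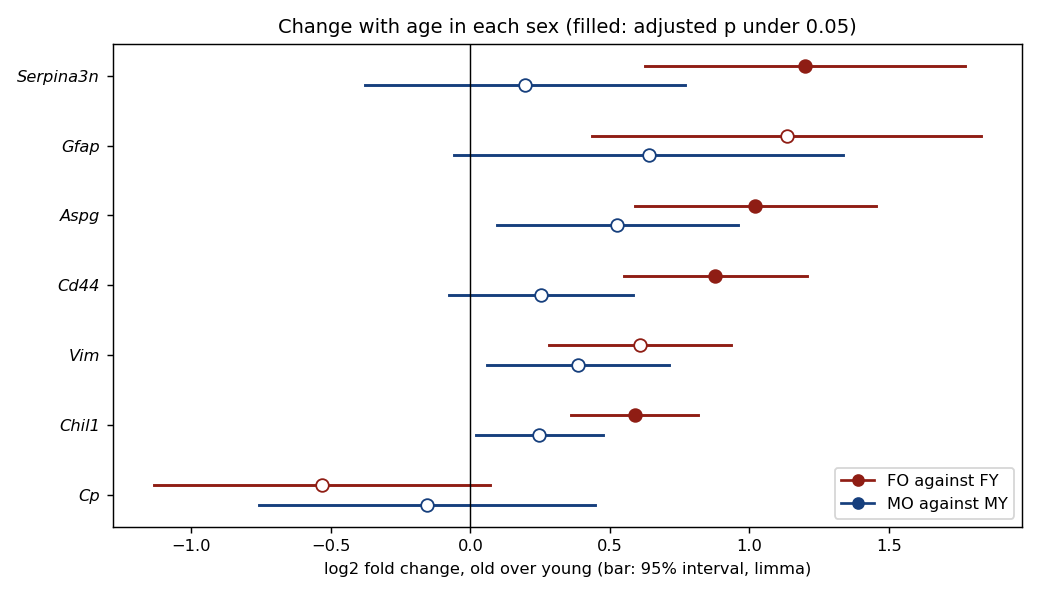
log2 fold change (horizontal axis, old over young of the same sex) of each of the 7 genes in females (red) and males (blue), with 95% intervals from limma. Filled points had an adjusted p under 0.05. The female value lies above the male value for 6 of the 7 genes (and for 55.7% of all probes tested), and the intervals of the sexes overlap for each of the 7 genes.

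The replicate numbers of FO and FY paired the arrays by their correlations, and with the number as a block and only these groups in the fit 6 of the 7 genes passed (1.72% of probes did). Gfap (adjusted p = 0.00125) and Vim (adjusted p = 0.0276) joined the other 4, and in each of the 6 all 4 old females were above the young female of the same number. For Serpina3n, Vim, Chil1, Aspg and Cd44 the groups did not overlap, so any pairing would show this. The share of all probes with every pair in one direction was not counted. Cp was lower in all 4 old females than in the young female of the same number and did not pass (-0.53, SE 0.139, adjusted p = 0.113). The same kind of fit for FO against FA called none of the 7 (0.0252% of probes passed). The labels name no litter, cage or day behind the number. Among the comparisons between groups only FO against FY had every same-numbered pair of arrays correlated at over 0.1. The block was thus chosen from these same data, so its calls are a description. The methods' test, which replaces adjustment over probes with post hoc testing and a fold limit, called the same 6 of 7 genes in FO against FY (1.67% of probes) and in FO against FA (1.18%), Cd44 alone in FO against MO (2.29%) and none in MO against MY (2.01%). Aspg and Cd44 passed the filter only through old mice, so the counts that hold them are a description. The rest of the 6, Gfap, Vim, Serpina3n and Chil1, were above 16 on every array.

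Over both sexes together, old mice were higher than young mice by the test for Vim (0.50, SE 0.111, adjusted p = 0.0188), Cd44 (0.57, SE 0.112, adjusted p = 0.00686), Aspg (0.77, SE 0.148, adjusted p = 0.00455) and Chil1 (0.42, SE 0.0777, adjusted p = 0.00354), where 1.27% of probes passed in either direction. Of the 5 genes above 16 on every array 2 passed, Vim and Chil1, against 0.99% of the probes above 16 on every array. Gfap (0.89, adjusted p = 0.0727) and Serpina3n (0.70, adjusted p = 0.0881) did not pass, although both did without MO replicate 3 (1.03 and 0.92, adjusted p = 0.0189 and 4.21e-05). Without MO replicate 3 alone 6 of the 7 passed and 143 of the 11901 probes did, and without MO replicates 1 and 3 together 5 of the 7 passed, Serpina3n among them, and 141 probes did, against 151 with all mice. Of the 4 old females, all 4 exceeded the mean of the young females for 6 of the 7 genes. Of the 4 old males, all 4 exceeded that of the young males for Aspg, Chil1 and Vim, and 3 of 4 did for Cd44, Gfap and Serpina3n. The share of all probes that did so was not counted. Aspg and Cd44 passed the filter only through old mice, so these counts are a description.

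The old mice differed among themselves in which genes were high. Among old females, replicate 3 was highest for Gfap, Aspg, Cd44 and Chil1, while replicate 4 was highest for Serpina3n, Vim, Lcn2 and Cp, and replicate 2 was lowest for 5 of the 8 genes. Among old males, replicate 1 was highest for Gfap, Cd44, Chil1 and Lcn2, and replicate 3 lowest for 6 of the 8. Across the 24 mice, after group means were removed, 56 relations among the 7 genes and cell type marker scores were computed with 100000 permutations, and none passed adjustment (lowest adjusted p = 0.177, for 8 of them).

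**Figure D3:**
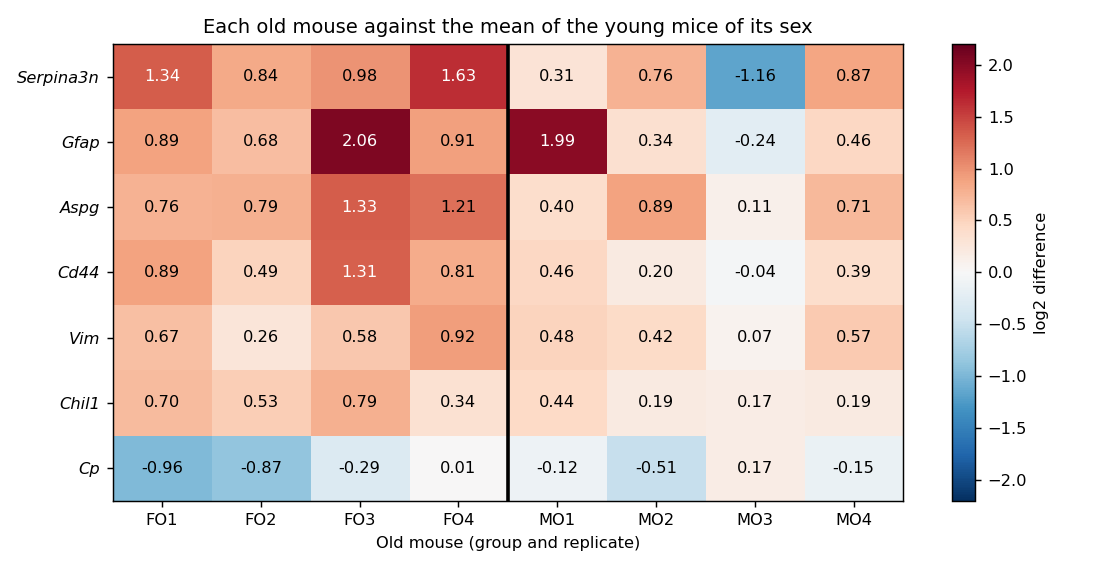
log2 difference (colour and number) of each of the 8 old mice from the mean of the young mice of its sex, for the 7 genes, with old females left of old males. The highest values lie in different mice for different genes, with Gfap at 2.06 in FO replicate 3 and 1.99 in MO replicate 1, and Serpina3n at 1.63 in FO replicate 4 and -1.16 in MO replicate 3.

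Between adult and old females, Cd44 passed the test (30.5, 23.1, 40.9 and 28.9 in FO, against 22.2, 14.7, 10.9 and 17.5 in FA, a difference of 0.77, SE 0.159, adjusted p = 0.0236), where 0.361% of probes passed. Cd44 passed the filter only through old females, and none of the 5 genes above 16 on every array passed (0.217% of such probes did). Old females were above adult females with no overlap for Gfap, Serpina3n, Aspg and Cd44 (3.9% of probes), of which Gfap and Serpina3n were above 16 on every array. The Cd44 call was lost with floors of 8 and 32 and without any of 6 of the 8 mice compared. In males, 1 of the 7 genes, Vim (0.41), reached an unadjusted p under 0.05 between adult and old mice (5.5% of probes did so). None of the 7 passed adjustment there, and 0% of all probes did. Between young and adult mice none of the 7 passed in either sex, where 0% of all probes passed in females and 0% in males. At an unadjusted p under 0.05 only Chil1 in females was reached (11% of probes in females and 2.07% in males).

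At 24 months all 7 genes were higher in the mean in females than in males, as were 59.3% of all probes tested. None of the 7 passed the test (0.176% of probes did). 3 of the 7, Serpina3n, Cd44 and Chil1, reached an unadjusted p under 0.05 in limma (9.68% of probes). The median difference over the 5 genes above 16 on every array was 0.32, against 0.04 over all such probes. Cd44 differed most in its p (30.8 ± 7.42 in FO and 18.7 ± 4.93 in MO, SD, n = 4 each, a difference of 0.62, adjusted p = 0.135), and no old female overlapped an old male (3.18% of probes were higher with no overlap), but Cd44 passed the filter only through old females. None of the 5 genes above 16 on every array was free of overlap there. Serpina3n differed by 0.90 (SE 0.277, adjusted p = 0.201), and by 0.45 without MO replicate 3. The Serpina3n difference was 0.28 without MO replicates 1 and 3 together (adjusted p = 0.766) and 1.13 without MO replicate 4 (adjusted p = 0.0762). Gfap differed by 0.55 (SE 0.337, adjusted p = 0.638), by 1.00 without MO replicate 1 and by 0.26 without MO replicate 3. The test of the difference itself, the old minus young change in females less that in males, passed for no probe of 11901. At an unadjusted p under 0.05 it reached 3 of the 7 genes, where 5.87% of probes did: Serpina3n (1.00, SE 0.391), Cd44 (0.62, SE 0.224) and Chil1 (0.34, SE 0.155), each with a limma adjusted p of 0.841 to 0.843. The Serpina3n value was 0.55 without MO replicate 3, 0.38 without MO replicates 1 and 3 together and 1.23 without MO replicate 4. The Gfap value was 0.49, with 0.94 without MO replicate 1 and 0.20 without MO replicate 3. Between young females and young males 1 of the 7, Cp, reached an unadjusted p under 0.05 (0.65 higher in FY, limma adjusted p = 0.716, 6.97% of probes), and between adults none did (6.55% of probes). None of the 7 passed adjustment in young (0.0336% of probes did) or in adult mice (0.0504%).

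Other genes of the same response gave few calls. Of 6 further genes known to be induced in every kind of reactive astrocyte only 2 were measurable. Osmr, the receptor subunit for oncostatin M, was higher over both sexes (0.70, SE 0.0991, adjusted p = 0.00019) and in FO (93.0) than in FY (47.2) by 0.98 (adjusted p = 0.000253), with 0.42 in males (adjusted p = 0.255). Hspb1, a small heat shock protein, was at -0.07 in FO against FY and at -0.47 in MO against MY (adjusted p = 0.569). None of 6 measurable genes of the list named A1, reported for astrocytes in inflammation in mice, passed (median 0.06 in FO against FY, -0.01 in MO against MY). Serping1, an inhibitor of complement, stood at -0.60 in females (adjusted p = 0.745), -0.72 in males (adjusted p = 0.326) and -0.66 over both sexes (adjusted p = 0.131). Of the A2 list, reported after ischaemia, 0 of 4 passed in either sex alone, and Cd14, a receptor for bacterial lipid that microglia also make, passed over both sexes (0.63, SE 0.151, adjusted p = 0.0343). Of 9 measurable genes of the cytokine pathways upstream, Socs3, the inhibitor that STAT3 induces, was higher over both sexes (0.74, SE 0.123, adjusted p = 0.00113), with 28.5 in FO against 14.2 in FY and 28.5 in MO against 13.9 in MY. Socs3 passed the filter only through the old groups, with young means under the floor, so its calls are a description. The change of Socs3 was 0.74 in females (adjusted p = 0.0466) and 0.74 in males (adjusted p = 0.0883). Stat3 itself differed by 0.30 in females and did not pass (adjusted p = 0.389).

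Of the astrocyte markers that do not belong to the reactive set, 0 of 11 passed in either sex, with medians of 0.05 in females and 0.09 in males and a range of -0.23 to 0.21 in females and -0.20 to 0.53 in males. Of the microglial markers, 7 of 9 measurable ones were higher in FO than in FY (median 0.93, against a median of 0.88 over the 7 reactive genes and -0.00125 over all probes tested, with Aspg and Cd44 in the median although they passed the filter only through old mice) and 0 of 9 passed in males (median 0.34, and 0.25 over the reactive genes). Over the 5 reactive genes above 16 on every array the medians were 0.61 in females and 0.25 in males. The mean level of the microglial markers lay between 0.297 and 0.777 in FO, -0.292 and -0.103 in FY, -0.0593 and 0.325 in MO and -0.413 and -0.153 in MY, in log2 units around the mean of all arrays. Choroid plexus markers were lower in the old mice (median -1.87 in FO against FY, -1.97 in MO against MY) and so were meningeal markers (-0.85 in both sexes) and ependymal ones (-1.09 in females, -0.62 in males), with 0 passing in each list and overlapping arrays (choroid score -1.10 to 0.376 in FO, -1.27 to 2.54 in FY). With the choroid score as a covariate 5 of the 7 reactive genes passed in FO against FY, including Vim, and 0.739% of probes did. Acta2 and Myh11, of mural cells, and Tek and Itm2a, of endothelium, were lower over both sexes (-1.13, -1.04, -0.37 and -0.42), while the median was -0.11 over the 5 measurable mural markers, 2 of them above 0, and -0.01 over the 7 endothelial ones, 3 of them above 0. The part of these cell types in the reactive genes' differences was not tested.

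**Figure D4:**
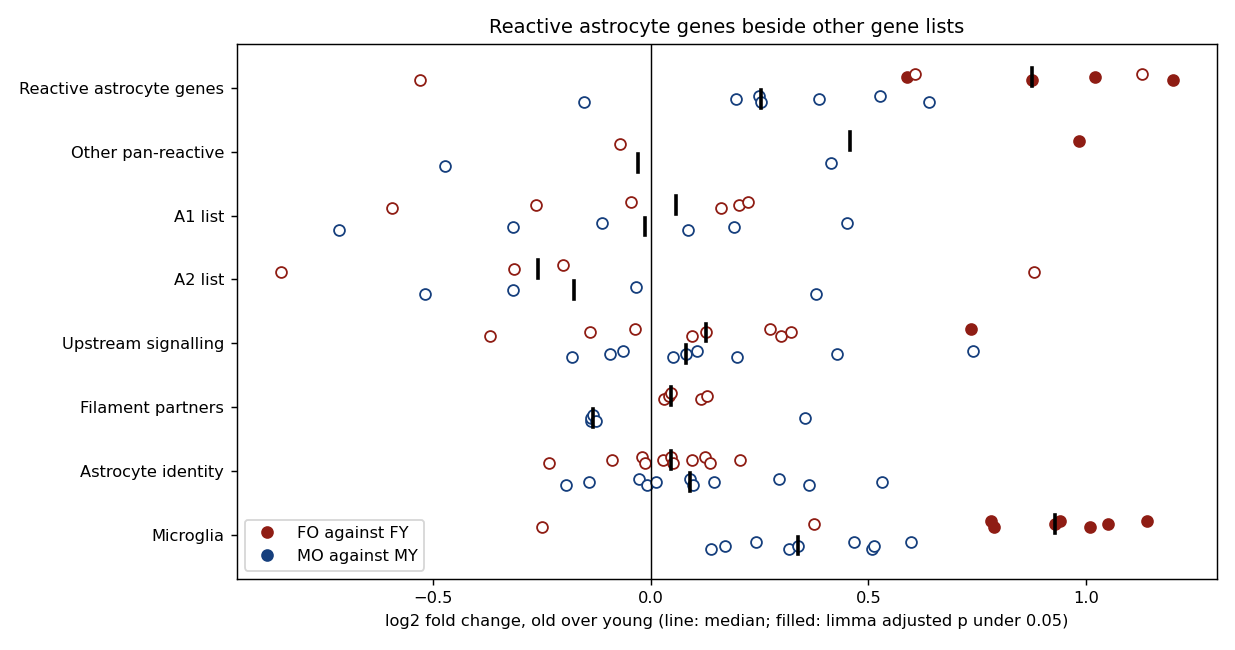
log2 fold change (horizontal axis, old over young of the same sex) of each measurable gene of 8 lists, in females (red) and males (blue). Black lines are list medians and filled points had a limma adjusted p under 0.05. In females 6 of 7 reactive genes and 8 of 9 microglial markers lie to the right of 0 (medians 0.88 and 0.93), while the astrocyte identity genes lie on both sides of it (median 0.05). Aspg and Cd44 passed the filter only through old mice. Over the 5 reactive genes above 16 on every array the median in females is 0.61.

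Over the 24 arrays, 1 probe a gene and 8479 genes, the genes whose log2 levels ran most like each reactive gene were listed as a description. Vim ran most like Lyz1 (r = 0.929), Lyz2 (0.919) and Fcer1g (0.875). Lyz1 and Lyz2 are near-identical lysozyme genes, of which Lyz2 is the one of myeloid cells. Gfap ran most like Was (0.869), Padi2 (0.868) and Samd4b (0.858), and Serpina3n most like Gpr84 (0.859), Skap2 (0.857) and Klk6 (0.852). Chil1 ran most like Cd44 (0.817), Osmr (0.814) and Hvcn1 (0.796), and Cp like Arhgap29 (0.841), Agtrap (0.805) and Angpt2 (0.785). All of these share the same 24 arrays and include the difference between groups. With group means removed, r was 0.544 for Chil1 with Cd44, 0.376 with Osmr and 0.29 with Hvcn1. For the genes listed with Gfap, Vim, Serpina3n and Cp it lay between 0.738 and 0.884.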

How the data were processed

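Labelled cRNA from 24 hippocampi was hybridised to Illumina Mouse Ref8 arrays. The authors average-normalised and background-subtracted the intensities in GenomeStudio (2011.1 by the submitters' processing notes), and the deposited intensities are linear, with 22.4% of values below 0 and a mean of 206.6 on each array. A second table of unnormalised signal and detection p-values, with 48 columns whose names pair with no sample, was not used here. Gene names came from the platform annotation (23978 probes with 1 symbol, 1719 with none, 0 with several).

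Values under 16 were set to 16 before log2 transformation, and probes above 16 on all 4 arrays of at least 1 group were kept. Differences between groups were fitted by limma 3.58.1 in R 4.3.3 (6 group means, empirical Bayes with a trend, Benjamini-Hochberg over 11901 probes, threshold 0.05, two-sided). Every adjusted p is limma's. The script was tested on simulated data. List genes were taken from 1 probe each, the one with the highest mean. Probes under the filter were compared by exact permutation of the deposited intensity within sex, a test chosen after the data were seen. Alternatives were other floors and filters, quantile normalisation, array weights, a replicate block, a choroid plexus covariate, leaving out mice and the methods' test (two-way analysis of variance, Student-Newman-Keuls and a fold limit of 1.2). The 8 genes, the lists and the tests were chosen with earlier results of these data known. Named genes of other lists were those passing the test and up to 4 more per list by size. Correlations of replicate numbers were 0.151 to 0.555 for the 4 pairs of FO and FY, all over 0.1, but -0.333 to -0.109 for MO and MY. The replicates are separate mice by the labels, and no batch is given.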

Additional observations from a re-analysis of the deposited data

Results flagged for a closer look

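In 46 groups of 4 mice examined for a member gene, 4 held a mouse far from the other 3 on the deposited intensity. Chance gives about 1 in 20 for normally distributed values, a rate that need not hold for these linear intensities. The flags were not checked on the log2 scale, where a high value lies less far from the rest. Gfap was 436 in FO replicate 3, against 168 to 197 in the other old females. Gfap was also 398 in MO replicate 1, against 85.4 to 139 in the other old males. Chil1 was 221 in MO replicate 1, against 183 to 186 in the other old males. Lcn2 was 224 in FO replicate 4, against 14 to 37.5 in the other old females. All 4 lay in old mice, and 2 of them in the same old male, MO replicate 1, whose choroid plexus markers also stood apart from those of the other old males.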

How the results depend on the processing

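In FO against FY, 4 of the genes passed (85 of all probes), 1 with a floor of 32 (64 probes) or with a filter at 64 (38 probes), 2 with only these groups in the fit (74 probes), and 2 to 5 when 1 mouse was left out (56 to 87 probes). Serpina3n lost its call without any one of 7 of the 8 mice with a change of 1.05 to 1.27. Aspg was lost without 5 of them, and Cd44 with floors of 8 and 32 and with only these groups in the fit. In FO against FA, 1 gene passed (43 probes), 0 did with a floor of 8 or 32 (35 probes each), without the filter (22), with a filter at 64 (16), with only these groups in the fit (4), and with a replicate block on only these groups (3), 2 did with a replicate block on all groups (43) or the choroid covariate (47), 4 with array weights (81) and 6 with the methods' test (141), and 0 to 1 with 1 mouse left out (15 to 48). In FO against MO, 0 passed (21 probes), 1 did with the methods' test (273) and 0 to 1 with 1 mouse left out (9 to 26). Over both sexes, 4 passed (151 probes), 2 with a floor of 32 (97) or a filter at 64 (80), and 3 to 6 with 1 mouse left out (120 to 207). With a replicate block on all 6 groups 4 passed in FO against FY, and it paired no other comparison by the correlations: same-numbered arrays correlated at -0.0015 in the mean, and 5 of 24 arrays correlated best with their own number. The fit with a block in males on MO and MY called 0 as before. None of the 1444 values of single genes under the alternatives changed a call's direction. The causes were not tested. The floor limits Aspg, Cd44, Lcn2 and Socs3, which were dim in young mice.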
